A study of Oryza sativa with 17 samples.

Results

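OsSWEET15 (LOC4329464) is 1 of the 32657 genes in the expression table of grains from black rice (BR) and red rice (RR) grown with and without foliar iron (Fe). It was taken from the table by its gene identifier, and it was chosen by its FPKM difference between Fe treatment and control in BR. That difference is therefore described with its values and without a test. The 17 libraries were made from polyadenylated grain RNA of 1 black variety at 10 days after flowering (DAF), the day given by the study's methods, and of 1 red variety at 15 and 20 DAF. Each variety and day had a control group and an Fe group of 3 libraries, except that the RR control at 15 DAF had libraries 2 and 3 only. All plants stood outdoors in pails, and 1 biological replicate pooled 6 pails. Controls received deionized water, and Fe plants received ferrous sulfate heptahydrate, first at the end of booting and again a week later. Nicotinamide, to aid uptake, and a surfactant were added for control and Fe plants alike. The study used a lower and a higher Fe concentration, and the sample labels name only Fe. The study's methods give the lower one (1Fe) as the treatment set against control for its differentially expressed genes. BR and RR libraries also differ in day after flowering, so variety and day cannot be told apart.

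SWEET proteins are membrane carriers that let sugars move down their concentration gradient. OsSWEET15 belongs to the group of the family that mainly carries sucrose and, together with OsSWEET11, it is known in rice for releasing sucrose from maternal tissue to the filling endosperm. Developing rice grains have no vascular or cytoplasmic link between the mother plant and the embryo and endosperm, so sucrose must be exported and taken up again on its way in. Rice lacking both carriers fills its grains poorly and holds starch in the pericarp.

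OsSWEET15 was abundant in BR control grains at 10 DAF, lower in BR grains under Fe, low in RR grains at 15 DAF, and close to 0 in RR grains at 20 DAF. Levels are given in FPKM, which scales the fragments of a gene to its transcript length and to the library total. In the BR control, libraries 1, 2 and 3 had 45.6, 66.3 and 50.4 FPKM, a mean of 54.1 ± 10.8 (SD, n = 3). These values stood above those of 96.9% to 97.6% of the 19774 genes tested, which were the genes with at least 1 FPKM in at least 2 libraries. In BR under Fe, libraries 1, 2 and 3 had 3.91, 24.5 and 3.48 FPKM, a mean of 10.6 ± 12.0 (SD, n = 3). The Fe libraries were thus not alike, since library 2 was 6.27-fold above the next highest one. Library 2 ranked above 93.3% of the genes tested, against 61.4% and 62.8% for libraries 1 and 3. All 3 Fe libraries nevertheless lay below all 3 controls, and the lowest control was 1.86-fold above the highest Fe library.

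The BR control mean was 5.09-fold the Fe mean. Without Fe library 2, the Fe mean was 3.69 ± 0.30 (SD, n = 2), and the control mean was 14.6-fold above it. Against Fe library 2 alone, the control mean was 2.21-fold higher. On the scale used for all tests, log2(FPKM + 1), the difference of means (Fe minus control) was -2.72, and it ranged from -3.54 to -2.28 when each of the 6 libraries was left out in turn. The lower end of that range came from leaving out Fe library 2. Of the 19774 genes tested, 6.11% had all 3 Fe libraries below all 3 controls, and 0.713% passed the thresholds of a call, 0.379% with lower expression under Fe. A call here is an adjusted p below 0.01 with a fold change of at least 1.5. These shares are background only, because this contrast chose the gene. In whole grains, fewer cells of a type and less RNA per cell cannot be told apart.

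**Figure D1:**
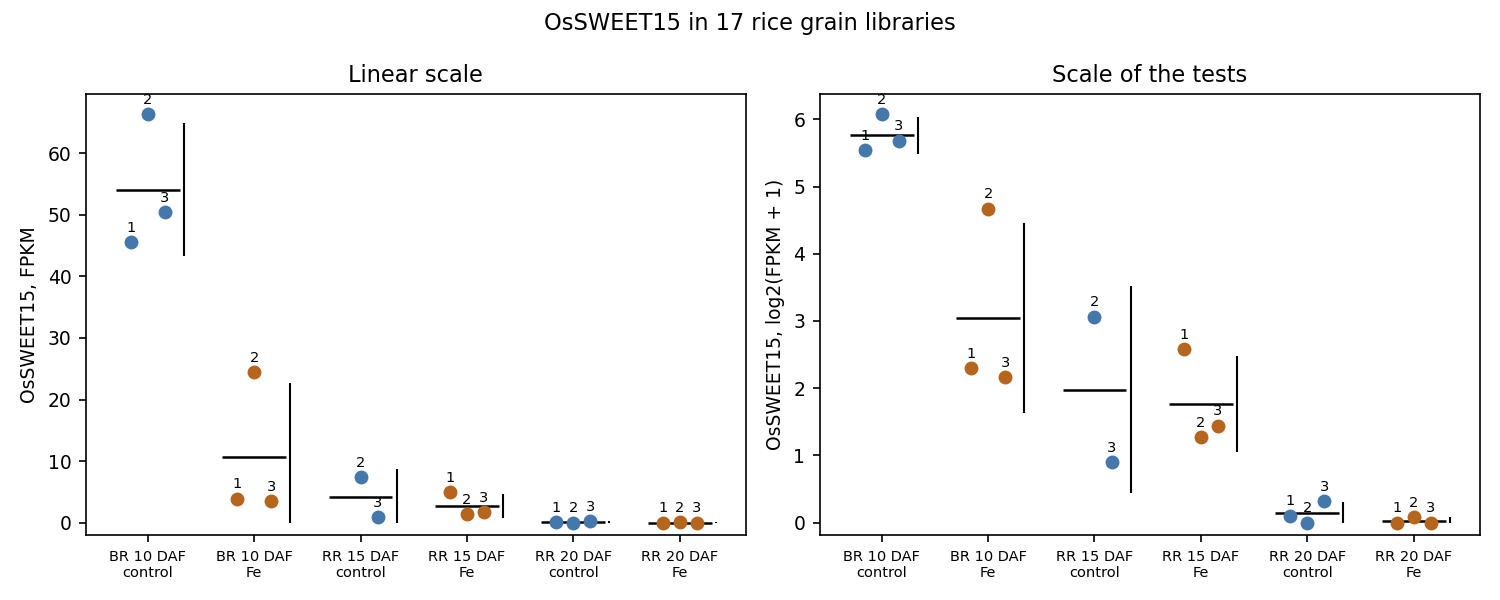
OsSWEET15 expression in each of the 17 libraries, in FPKM (left) and as log2(FPKM + 1) (right), with control libraries in blue, Fe libraries in brown and replicate numbers beside the points. Horizontal lines are group means, and vertical lines are 1 SD to either side, cut at 0 (n = 3, or n = 2 for the RR control at 15 DAF). The BR controls sit between 45.6 and 66.3 FPKM, BR Fe library 2 sits at 24.5 between them and its group, and the 6 RR libraries at 20 DAF lie at or near 0.

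BR Fe library 2 resembled the controls in photosynthesis genes and in embryo and aleurone genes, which mark other grain tissues. Among 8 photosynthesis genes, which mark green tissue such as the pericarp, the summed level was 5.80 to 12.6 FPKM in the BR controls. It was 79.6 FPKM in Fe library 1 and 28.0 FPKM in Fe library 3, the libraries with the least OsSWEET15, but 11.7 FPKM in Fe library 2. Of these 8 genes, 7 had a higher and 1 a lower mean under Fe, and 0 passed the thresholds, while 3 had an unadjusted p below 0.05 with limma, against 12.8% of all genes. Only BR control library 1 had a photosynthesis gene at 0 among the BR libraries, and that was 1 gene. Among 11 embryo and aleurone maturation genes, the summed level was 872 to 3155 FPKM in the controls, 545 and 436 FPKM in Fe libraries 1 and 3, and 1491 FPKM in Fe library 2. All 11 had a lower mean under Fe, with a median of -1.34 against 0.01 over all genes tested, and 0 passed the thresholds, while 8 had an unadjusted p below 0.05 with limma. Within this list, the dehydrin gene OsDhn1 was closest to the thresholds, at 24.1 ± 9.36 FPKM in the control and 6.51 ± 3.77 under Fe (SD, n = 3 each, limma adjusted p = 0.0402). The mean log2 level of 13 endosperm storage protein genes stayed between 12.5 and 12.7 in all 6 BR libraries. The 5 genes listed here for the nucellus and maternal layers, where OsSWEET15 is known to act, had summed levels of 107 to 174 FPKM in the controls. Under Fe the sums were also 107 to 174 FPKM, but the members differed in direction. Their mean log2 level was 2.83 to 3.31 in the controls and 3.18, 3.13 and 2.35 in Fe libraries 1, 2 and 3. Of the 5, 3 had a lower mean under Fe, namely OsMADS29, OsMADS13 and OsMADS21 (differences -0.39, -0.42 and -0.28). The 1 with a higher mean was OsVPE1 (0.02), whose place in these layers was not tested. OsSAG12 was listed at 0 in every BR library, so it could show no difference and added nothing to the sums. Of the list, 0 passed the thresholds, while 1 had an unadjusted p below 0.05 with limma, against 12.8% of all genes. That gene was OsMADS29, a regulator of nucellus breakdown in rice, whose groups did not overlap (difference -0.39, limma adjusted p = 0.293). Of all genes tested, 6.11% were lower without overlap in this comparison. The part of these tissues in the OsSWEET15 difference was not tested.

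**Figure D2:**
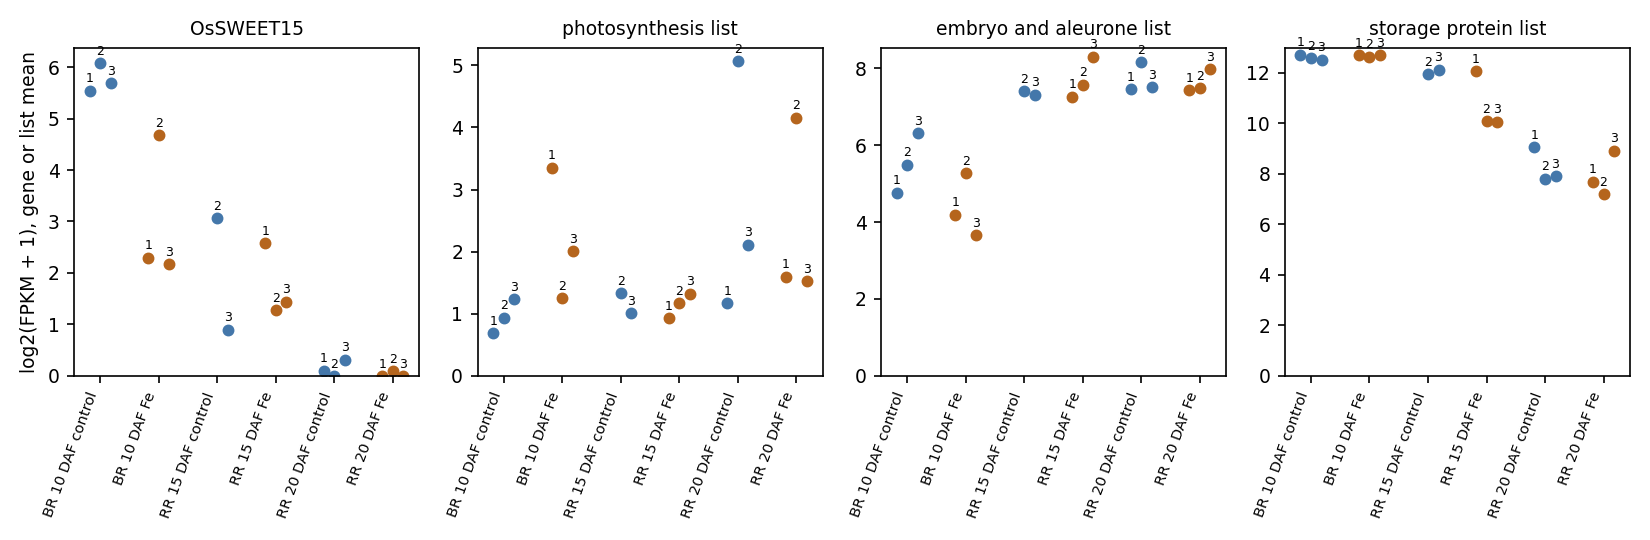
OsSWEET15 beside the mean level of 3 marker lists in each library, all as log2(FPKM + 1), with control in blue, Fe in brown and replicate numbers beside the points. In BR, Fe libraries 1 and 3 are low for OsSWEET15 and high for photosynthesis genes. Fe library 2 lies near the controls for photosynthesis genes, and between the controls and the other Fe libraries for OsSWEET15. In RR, storage protein genes fall from about 12 in 3 libraries at 15 DAF to between 7.19 and 9.07 at 20 DAF.

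In RR grains at 15 DAF, where veraison of the red variety was sampled, OsSWEET15 did not separate Fe treatment from control. Control libraries 2 and 3 had 7.36 and 0.863 FPKM, an 8.54-fold gap within the group. Fe libraries 1, 2 and 3 had 4.99, 1.42 and 1.71 FPKM. All 3 Fe values lay between the 2 control values. The difference of mean log2(FPKM + 1), Fe minus control, was -0.22 with a standard error of 0.92 and a 95% interval from -2.15 to 1.72 (limma adjusted p = 0.951). An exact permutation test of the difference gave a two-sided p of 0.8, where the smallest p that 2 against 3 libraries allow is 0.1. The control mean on this scale was 1.98, so the interval, which reaches down to -2.15, does not exclude even a fall to 0 FPKM. In this comparison 0 genes were called by limma (0% of 19774), 8.16% had an unadjusted p below 0.05, and 666 genes were called without Fe library 1. Without that library the OsSWEET15 difference was -0.62 (limma adjusted p = 0.647).

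The RR libraries at 15 DAF were themselves uneven. Fe library 1 correlated at r = 0.969 with control library 2 across genes, but at only 0.845 and 0.877 with Fe libraries 2 and 3 of its own group, and genes are not independent replicates. With control library 3 it correlated at 0.945. Fe library 1 and control library 2 held the highest OsSWEET15 levels of RR, but control library 3 held less than Fe libraries 2 and 3, so OsSWEET15 did not follow this division. The storage protein genes had mean log2 levels of 11.9 and 12.1 in the controls and 12.1 in Fe library 1, against 10.1 in both Fe libraries 2 and 3. Without control library 2 the Fe difference turned to 0.87, and without Fe library 2 to 0.03, whereas without control library 3 it was -1.30. With Fe libraries 2 and 3 both left out, a check added after the data were seen, it was 0.60. The sign of the RR response at 15 DAF therefore depended on single libraries.

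At 20 DAF, OsSWEET15 was barely detected in RR grains of either treatment. Control libraries 1, 2 and 3 had 0.0727, 0 and 0.245 FPKM, and Fe libraries 1, 2 and 3 had 0, 0.0612 and 0 FPKM. It was thus listed at 0 in 3 of the 6 libraries, and the treatments overlapped. The Fe difference in log2(FPKM + 1) was -0.11 with a standard error of 0.66 and a 95% interval from -1.51 to 1.29 (limma adjusted p = 1). That standard error rests on a spread shared over all groups, whereas the SD on this scale was 0.16 in the controls and 0.05 under Fe. The control mean was 0.14, so a fall near the lower end of the interval could not occur. The exact permutation p was 0.4, two-sided, with 0.1 the smallest that 3 against 3 libraries allow. Over all genes, 0.0152% were called in this comparison and 5.03% had an unadjusted p below 0.05. The Fe response at 20 DAF differed from that at 15 DAF by 0.10 (standard error 1.13, 95% interval -2.28 to 2.49, limma adjusted p = 1.0), a comparison in which 0.0152% of genes were called. The difference between the BR and RR responses was not tested, since the BR contrast chose the gene. The table gives no read counts, so the depth behind these values is unknown, and an FPKM of 0 does not show that the transcript is absent.

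Every RR library at 20 DAF held less OsSWEET15 than any RR library at 15 DAF. The 5 libraries at 15 DAF had 0.863 to 7.36 FPKM, a mean of 3.27 ± 2.80 (SD, n = 5), and the 6 libraries at 20 DAF had 0 to 0.245 FPKM, a mean of 0.0632 ± 0.0950 (SD, n = 6). The highest library of 20 DAF was control library 3, and the lowest of 15 DAF was also control library 3. Of all genes tested, 3.84% were lower in this way without overlap. The difference in log2(FPKM + 1), 20 minus 15 DAF with both treatments weighted equally, was -1.79 with a standard error of 0.57 and a 95% interval from -2.98 to -0.60. Its limma adjusted p of 0.0141 missed the threshold of 0.01, in a comparison where 35.7% of genes were called, 29.8% higher and 5.92% lower. The exact permutation test over the 11 RR libraries gave a two-sided p of 0.00216, which is the smallest its 462 arrangements can give. With a pseudocount of 0.1 in place of 1, the difference was -4.12 with a limma adjusted p of 2.35e-04 and passed the threshold.

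Over all genes tested, the median difference from 15 to 20 DAF was 0.53, so that most genes had a higher FPKM at 20 DAF. Centred on the library medians, the OsSWEET15 difference was -2.32 and also passed (limma adjusted p = 0.00447). Without control library 2 of 15 DAF, which held the highest RR value, the difference was -1.25 with an adjusted p of 0.178. In controls alone the difference between days was -1.84 (standard error 0.77, 95% interval -3.46 to -0.23, limma adjusted p = 0.0564), and it lay between -2.93 without control library 3 and -0.76 without control library 2 of 15 DAF. In that comparison 28.9% of genes were called. Under Fe it was -1.74 (standard error 0.83, 95% interval -3.49 to 0.02, limma adjusted p = 0.175), again without overlap between days, as for 9.05% of genes in that direction, and 0.602% of genes were called.

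Ordered by group mean, OsSWEET15 ran from the BR control (54.1 FPKM) over BR Fe (10.6), the RR control at 15 DAF (4.11 ± 4.60, SD, n = 2) and RR Fe at 15 DAF (2.71 ± 1.98, SD, n = 3) to the RR control (0.106 ± 0.126, SD, n = 3) and RR Fe (0.0204 ± 0.0354, SD, n = 3) at 20 DAF. BR Fe and the 15 DAF control of RR were neighbours whose libraries overlapped. The same was true of the 2 treatments of RR at 15 DAF and of the 2 treatments of RR at 20 DAF. The BR control stood clear of all other groups, 13.1-fold above the RR control at 15 DAF by the means. BR Fe was 3.92-fold above RR Fe at 15 DAF by the means, but the libraries of these groups overlapped. RR Fe library 1 (4.99 FPKM) lay above BR Fe libraries 1 and 3 (3.91 and 3.48 FPKM). Without BR Fe library 2 the BR Fe mean was 3.69 FPKM, against 2.71 in RR Fe.

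The SWEET family put these levels in relation, since FPKM is scaled by transcript length. Of 14 SWEET genes found in the table by name, 9 passed the filter on low values, OsSWEET15 among them. OsSWEET12, OsSWEET13, OsSWEET2b, OsSWEET3a and OsSWEET5 did not. A SWEET gene without a matching name would be missed, so shares and ranks refer to these 14 genes only. OsSWEET15 made up 19.4% to 22.3% of their summed FPKM in the BR controls and ranked second in each. Under Fe in BR its share was 2.74%, 11.6% and 3.32% in libraries 1, 2 and 3, at ranks 5, 3 and 5. In RR its share was at most 8.48% at 15 DAF and at most 0.126% at 20 DAF.

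OsSWEET11, its partner in sucrose release, was the most abundant of the SWEET genes found in the BR grains. It had 114, 181 and 112 FPKM in BR control libraries 1, 2 and 3 and 95.3, 112 and 63.0 FPKM in the Fe libraries, so that the groups overlapped slightly. Its Fe difference in BR was -0.59 (standard error 0.46, 95% interval -1.55 to 0.38, limma adjusted p = 0.712). The ratio of OsSWEET11 to OsSWEET15 was 2.22 to 2.73 in the BR controls, and 24.4, 4.59 and 18.1 in Fe libraries 1, 2 and 3. The BR ratio contains the difference that chose OsSWEET15 and is a description only. In RR at 15 DAF the ratio was 0.860 and 11.5 in control libraries 2 and 3, and 13.2, 0.547 and 0.545 in Fe libraries 1, 2 and 3, so the RR controls held no common ratio. In RR at 15 DAF, OsSWEET11 had 6.33 and 9.90 FPKM in the controls and 65.6, 0.776 and 0.935 FPKM under Fe, where the first library again stood apart from the other two. At 20 DAF it was listed at 0 in all 6 RR libraries, and it was called lower than at 15 DAF (limma adjusted p = 4.80e-04), a call that held in 20 of 21 alternatives and was lost without control library 3 of 15 DAF (adjusted p = 0.0143).

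**Figure D3:**
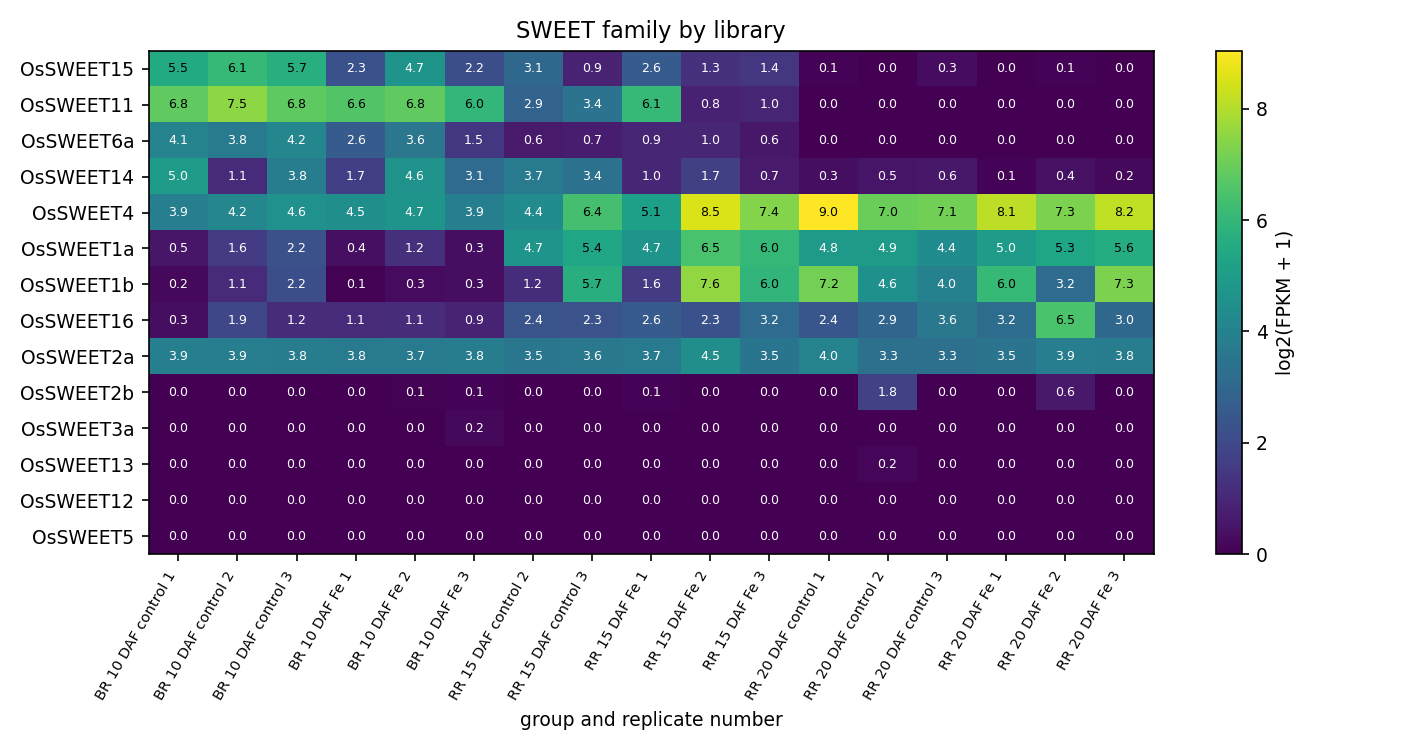
Levels of the 14 SWEET genes in each of the 17 libraries, as log2(FPKM + 1), one row per gene and one column per library. OsSWEET15, OsSWEET11 and OsSWEET6a are on average highest in the BR controls and lie at or near 0 in RR at 20 DAF, while OsSWEET1a is higher in every RR library than in any BR library.

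OsSWEET6a followed OsSWEET15 most closely among the SWEET genes tested. The annotation gives this row the name OsSWEET6b as well, so reads of near-identical copies may be shared. It had 15.6, 12.6 and 17.05 FPKM in the BR controls and 5.27, 10.98 and 1.79 FPKM under Fe, with no overlap and again the highest Fe value in library 2. Its limma adjusted p in BR was 0.0304 (difference -1.43, standard error 0.33), which missed the threshold. For scale, 6.11% of genes were lower without overlap in this comparison. In RR it had 0.495 to 0.961 FPKM at 15 DAF and was listed at 0 in all 6 libraries at 20 DAF (limma adjusted p = 0.111).

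OsSWEET14, a further sucrose carrier of the same group, did not share the BR pattern. It had 30.5, 1.11 and 13.3 FPKM in the controls and 2.17, 23.9 and 7.85 FPKM under Fe. In RR it went from 0.587 to 12.4 FPKM at 15 DAF to 0.063 to 0.483 FPKM at 20 DAF, again without overlap, with a difference of -1.99 (standard error 0.85, limma adjusted p = 0.0566). OsSWEET4, known in cereals for hexose import into the developing seed, went the other way. It had 13.7 to 24.9 FPKM in BR, 19.7 to 365 FPKM in RR at 15 DAF and 130 to 527 FPKM at 20 DAF. Its difference between days was 1.61 (standard error 0.53, limma adjusted p = 0.0165), which missed the threshold. With the libraries centred on their medians, the OsSWEET4 difference was 1.08 (limma adjusted p = 0.104). OsSWEET2a stayed between 9.004 and 21.2 FPKM in all 17 libraries. OsSWEET1a, OsSWEET1b and OsSWEET16 were at or below 3.74 FPKM in every BR library. In RR, OsSWEET1a ranged from 20.2 to 86.7 FPKM and OsSWEET1b from 1.25 to 188 FPKM. OsSWEET16 reached 87.7 FPKM only in Fe library 2 at 20 DAF and was at most 11.2 FPKM in every other RR library. Among the 8 other SWEET genes tested, 0 were called for Fe in BR, in RR at 15 DAF or in RR at 20 DAF by limma, with 2, 0 and 0 at an unadjusted p below 0.05, against 12.8%, 8.16% and 5.03% of all genes. Between the days of RR, 1 of the 8, OsSWEET11, was called lower and 0 were called higher, against 5.92% and 29.8% of all genes. Their median difference between days was -0.23, against 0.53 over all genes tested.

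**Figure D4:**
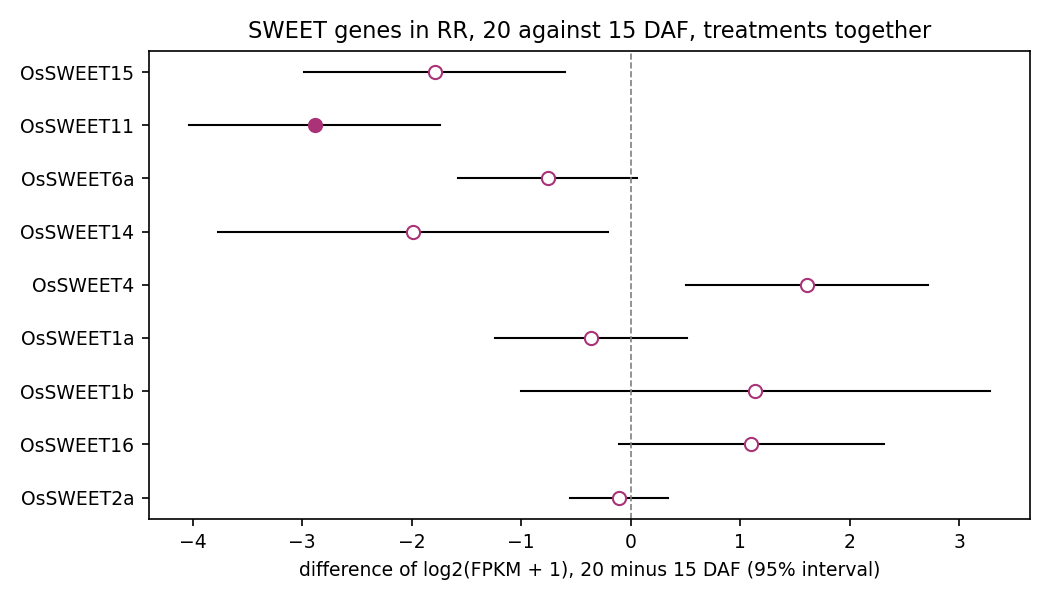
Differences in log2(FPKM + 1) between 20 and 15 DAF in RR for the 9 SWEET genes tested, with 95% intervals from limma (11 libraries, treatments weighted equally). The filled point is the gene that passed the thresholds (OsSWEET11), and open points did not pass. OsSWEET15 lies at -1.79 with an interval from -2.98 to -0.60.

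Genes that act before and after OsSWEET15 on the sucrose route were compared in the same fits. In BR, 1 of 6 invertase genes was called, against 0.713% of all genes. All 6 had an unadjusted p below 0.05 with limma, against 12.8% of all genes, 3 with a higher and 3 with a lower mean under Fe. OsCIN5, a cell wall invertase gene, which splits exported sucrose, fell from 1.11 ± 0.0839 to 0.156 ± 0.0417 FPKM under Fe (SD, n = 3 each, difference -0.87, limma adjusted p = 9.35e-04), at a level far below that of OsSWEET15. OsCIN5 reached the filter of 1 FPKM in at least 2 libraries through the BR controls, the group where it is high. Its call, and the count of 1 in 6, are therefore descriptions only. Its call held in 6 of 15 alternatives and was lost, for example, without control library 2 and without Fe libraries 1 or 3 (limma adjusted p = 0.0104, 0.0114 and 0.0138). OsCIN4 and OsNIN3 had higher values in all 3 Fe libraries than in the controls but missed the threshold (differences 0.75 and 0.57, limma adjusted p = 0.194 and 0.207). OsCIN1 and OsNIN1 had lower values in all 3 Fe libraries and missed it too (differences -0.74 and -0.48, limma adjusted p = 0.293 and 0.282). Of all genes tested, 8.29% were higher and 6.11% lower without overlap. In BR, 0 of 3 sucrose transporter (SUT) genes, 0 of 9 sucrose synthase and sucrose phosphate synthase genes, 0 of 8 starch synthesis genes and 0 of 13 storage protein genes were called by limma. Those at an unadjusted p below 0.05 numbered 1, 2, 1 and 0, against 12.8% of all genes. OsSUT1, the proton-coupled importer that can take up the sucrose released, had 21.1 ± 10.2 FPKM in the BR control and 10.2 ± 2.21 under Fe (SD, n = 3 each, limma adjusted p = 0.248). OsNF-YB-1, an endosperm regulator known in rice to act on sucrose transporter genes, had 30.2 ± 13.7 and 10.3 ± 1.55 FPKM (SD, n = 3 each, limma adjusted p = 0.155).

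Between 15 and 20 DAF in RR, where OsSWEET15 itself missed the threshold, genes of the same route were called in both directions. Over all genes, 5.92% were called lower and 29.8% higher. Of 8 starch synthesis genes, 5 were called lower and 0 higher, with a median of -2.31 against 0.53 over all genes. OsGBSS1, the amylose synthase of the grain, fell by 3.63 on the log2(FPKM + 1) scale (limma adjusted p = 2.62e-05), and the debranching enzyme gene OsISA1 fell by 3.82 (limma adjusted p = 9.36e-05). Of 13 storage protein genes, 12 were called lower and 0 higher, with a median of -3.67. The sucrose synthase gene OsSUS2, whose product cleaves imported sucrose, fell by 2.83 (limma adjusted p = 4.42e-05), and OsNF-YB-1 fell by 2.06 (limma adjusted p = 0.00425). OsSUT1 went against OsSWEET15, with a difference of 1.52 (limma adjusted p = 0.00556), from 15.8 to 113 FPKM at 15 DAF to 103 to 175 FPKM at 20 DAF. The sucrose phosphate synthase genes OsSPS3F and OsSPS2F and the invertase gene OsNIN1 were also called higher (1.502, 1.05 and 1.08). With the libraries centred on their medians, OsSUT1, OsSPS3F, OsSPS2F and OsNIN1 stayed higher but were no longer called, at limma adjusted p-values of 0.0446, 0.0133, 0.0225 and 0.0206. OsGBSS1, OsISA1 and OsSUS2 were called in all 21 alternatives and OsSUT1 and OsNF-YB-1 in 11 of 21. The highest adjusted p was 0.107 for OsSUT1, without control library 2 of 15 DAF, and 0.0563 for OsNF-YB-1, without control library 3 of 15 DAF. Of 21 genes of iron uptake, chelation and storage, 5 were called higher and 0 lower between the days. The 5 called higher are near the 29.8% of all genes, and centring removed the calls of OsIRO2 and IDEF1 (limma adjusted p = 0.107 and 0.112). For Fe, 0 of the 21 were called in any of the 3 Fe comparisons by limma. Those at an unadjusted p below 0.05 numbered 5 in BR (4 lower, 1 higher) and 1 and 1 in RR at 15 and 20 DAF. Over all genes these shares were 12.8%, 8.16% and 5.03%.

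The genes most like OsSWEET15 were found by Pearson's r of log2(FPKM + 1) across libraries, given as a description because libraries of a group share variety, day and treatment. Over all 17 libraries, 0.324% of the other genes tested (64 of 19773) had an r above 0.9. The named genes with the highest r were CYP734A4 (0.944), OsSWEET6a (0.942), the beta-glucosidase gene Os10bglu34 (0.916), the auxin response gene IAA14 (0.912) and the cytosolic glutamine synthetase gene OsGLN1;2 (0.911). Only 2881 of the 28737 annotated identifiers had a short name, so genes without one stand closer. Among all genes, these named genes ranked 3, 6, 34, 44 and 45. CYP734A4, whose enzyme family inactivates brassinosteroids, had 4.26, 4.05 and 8.09 FPKM in the BR controls and 3.02, 6.04 and 1.85 FPKM under Fe, 0.519 to 1.495 FPKM in RR at 15 DAF and at most 0.0941 FPKM at 20 DAF. Its highest BR Fe value was also that of library 2, but its BR groups overlapped. OsSWEET11 had an r of 0.878, OsSWEET14 one of 0.695 and OsSWEET4 one of -0.81. The named genes least like OsSWEET15 were OsC3H32 (-0.93), the calmodulin gene CAM (-0.92), the splicing factor gene Os-RSZ23 (-0.92), the DnaJ chaperone gene OsDjA6 (-0.92) and the cyclin gene CYCT1-1 (-0.91).

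Within the 11 RR libraries alone, 0.458% of genes had an r above 0.9 with OsSWEET15. CYP734A4 was again the named gene most like it (0.959), followed by the potassium channel gene OsAKT1 (0.944), MPK17 (0.935), the sucrose synthase gene OsSUS5 (0.922) and the phosphate carrier gene OsPHO1;2 (0.919). Among all genes, they ranked from 5 to 40. OsPHO1;2 repeated the uneven 15 DAF pattern, with 8.66 and 2.46 FPKM in control libraries 2 and 3 and 4.14, 1.26 and 1.07 FPKM under Fe. Within the 6 BR libraries, where the contrast that chose OsSWEET15 enters the likeness, 1.97% of genes had an r above 0.9. The named genes most like it there were the thioredoxin gene OsTrxh1 (0.975), GRXC4 (0.974), ERH1 (0.972), the jasmonate repressor gene OsJAZ7 (0.966) and the cysteine protease gene OsCP1 (0.964). Among all genes, they ranked from 23 to 55. OsCP1 had 301, 291 and 233 FPKM in the BR controls and 84.2, 251 and 63.9 FPKM under Fe, so its Fe library 2 lay among the controls, whereas that of OsJAZ7 lay below them, at 2.14 FPKM against 4.88 to 8.22 FPKM.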

How the data were processed

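Polyadenylated grain RNA was sequenced on an Illumina instrument, and the authors aligned reads to the rice genome IRGSP-1.0 with HISAT2 and assembled them with StringTie (versions not given in the sources used here). The deposited table holds FPKM per gene and library, scaled by the authors to transcript length and library total. It gives no read counts, so the depth is unknown and no count test or counting interval was used. The count-based test of the study was therefore replaced.

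FPKM was analysed as log2(FPKM + 1) with limma 3.58.1 in R 4.3.3: 6 group means over 17 libraries, a variance factor per group and Benjamini-Hochberg adjustment over the 19774 genes with at least 1 FPKM in at least 2 libraries. Calls followed the limits of the study, 1.5-fold or more together with an adjusted p under 0.01. Fold changes on this scale understate those of low genes. Exact permutation tests over libraries were two-sided. The fit was tested on simulated data.

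Of 28737 annotated identifiers, 27491 were found in a RefSeq gene table, used for names only. No sequence is shown. Gene lists were made by symbol, and the text names OsSWEET15, the SWEET genes, list members with the smallest p or a call, and the genes most and least like OsSWEET15. The gene and lists were chosen with earlier results of these data known. Replicates are the study's biological replicates of 6 pails. Alternatives were other pseudocounts, filters, scalings, variance models, thresholds, a replicate block, fits of the compared groups alone and leaving out each library.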

Additional observations from a re-analysis of the deposited data

How the results depend on the processing

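Values are differences in log2(FPKM + 1) of OsSWEET15. In BR, Fe minus control stayed negative in all alternatives. In RR at 15 DAF it was -1.30 to 0.87 with each library left out, with 0.87 without control library 2, 0.03 without Fe library 2 and 0.60 without Fe libraries 2 and 3, the last added after seeing the data. At 20 DAF it was -0.18 to -0.02. The difference between these responses was -0.98 to 1.19 with each library left out, turning negative without control library 2 (-0.98), Fe library 2 (-0.14) or Fe library 3 (-0.06) of 15 DAF, without Fe libraries 2 and 3 (-0.71) and with a pseudocount of 0.1 (-0.48). The difference between days, both treatments, was -2.33 to -1.25 with each library left out (limma adjusted p 0.0187 to 0.178). It passed the threshold with a pseudocount of 0.1 (-4.12), centring (-2.32), no variance factor (-1.79, adjusted p 0.00232), the RR groups alone (-1.79, 0.00218) and a threshold of 0.05 (-1.79). In controls it was -2.93 to -0.76 and passed with a pseudocount of 0.1 (-3.89, 0.00459), and under Fe it was -1.98 to -1.33. In BR the leave-one-out range was -3.54 to -2.28. The low FPKM at 20 DAF and an unknown depth limit all RR values.

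The replicate numbers were not taken to pair the libraries: across genes, deviations from the group means correlated at -0.36 to 0.23 between same-numbered control and Fe libraries. With the replicate block, the Fe difference was -2.72 in BR, -0.62 in RR at 15 DAF (Fe library 1 has no partner and drops out) and -0.11 at 20 DAF, and the difference between the RR responses was 0.51. The block moved the number of genes called from 141 to 5 in BR and from 3 to 1 in RR at 20 DAF. In RR at 15 DAF, where Fe library 1 drops out as well, 0 genes were called with all libraries, 666 without that library and no block, and 413 with the block. For the difference of responses these counts were 3, 49 and 17. Of 6 libraries, 1 in BR and 3 in RR at 20 DAF correlated best with their own number. The block lies within a day, so no blocked difference between days could be fitted. Of 67 recomputed counts of other SWEET genes called, 15 moved.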
